A study of Homo sapiens with 6 samples.

Results

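Genes that bind, turn over or pull on actin filaments were followed in clones of MDA-MB-231 cells in which the actin regulator WASF3 was kept low. Of 44 such genes, 40 could be measured. MDA-MB-231 is an established line of invasive triple-negative human breast cancer. Members were taken from a list of gene symbols, and where a gene has several probe sets the brightest on average was used. The whole series measured 19775 genes in this way. ACTG1 could not be placed because its 9 probe sets are annotated to ACTB as well, and CAP1, FLNA and TPM3 have no probe set under their names in the annotation used here.

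Every clone came from cells of passage 4 infected with a pSM2 retrovirus, selected in puromycin and expanded from a single resistant colony in a medium with serum. The knockdown group holds 3 clones that carry either of 2 short hairpin RNAs against WASF3. The control group holds 3 clones with the empty vector or a hairpin against GFP. The labels do not tie a vector to a clone. Each clone was read on 1 array, so every value below is that of a separate clone, and differences between clones of 1 group may include differences between their founding cells.

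Actin filaments grow from monomers at their barbed ends and are taken apart at the other end. Profilins, twinfilins and thymosins bind the monomers, and the cofilins sever old filaments until LIM kinases switch them off by phosphorylation. Fascin, plastins and alpha-actinins join filaments into bundles, while tropomyosins and non-muscle myosin form the contractile fibres that pull on the matrix. WASF3 stands upstream as an activator of the ARP2/3 complex, which starts branches on existing filaments. Many genes for filament proteins are read by the serum response factor, whose coactivators are held by free actin monomers.

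WASF3 read 5.40, 5.80 and 4.52 in knockdown clones 1, 2 and 3, and 6.77, 6.42 and 6.59 in control clones 1, 2 and 3 on the log2 scale. Its change, knockdown minus control, was −1.35 (SE 0.29, limma adjusted p = 0.102). Clone 3 lay below its array median of 5.16, where a signal may be background, and the drop in that clone has no exact size. Signals are those of whole cultures, in which fewer cells with a transcript and less of it per cell cannot be told apart. Markers of the line checked its label: 6 of 7 (VIM, CD44, AXL, CAV1, ZEB1 and PLAUR) were well above the array medians of 5.13 to 5.17, while SPARC lay between 3.99 and 4.91. The 7 markers were not level between the groups. They summed to 75.7 to 76.7 in knockdown and to 77.3 to 77.8 in control clones, without overlap. Their median change was −0.14, and before adjustment 2 were lower and 0 higher with limma p under 0.05. The cause was not tested. Leukocyte markers summed to between 26.297 and 27.998 over 6 genes in knockdown and to 27.2 to 27.5 in control clones, and PTPRC, which defines these cells, lay between 3.05 and 3.41. The 7 smooth muscle markers summed to 37.9 to 38.0 in knockdown and to 37.9 to 38.6 in control clones. The 8 luminal breast markers summed to 60.0 to 67.9 in knockdown and to 66.2 to 67.5 in control clones. Of these 8, 5 were lower before adjustment with p under 0.05, the median change was −0.32, and the median deviations of clones 1, 2 and 3 were −0.17, −0.45 and −0.65. Their part in the results was not tested. The 4 endothelial markers summed to 19.4 to 20.9 and to 20.4 to 20.7. The ends of control transcripts differed between the groups. An index of the 3′ minus the 5′ signal of ACTB and GAPDH, a sign of RNA quality, was 2.11, 1.62 and 1.66 in knockdown clones 1, 2 and 3 and 1.13, 1.47 and 1.26 in the control clones (exact two-sided permutation p = 0.1, the smallest that 3 against 3 can give).

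Between the groups, the list as a whole barely shifted. Its median change was −0.03, beside −0.01 over all genes, with 19 members above and 21 below 0. The change was smaller than 0.25 in size for 28 of the 40 members. With adjustment over the 54613 probe sets, 1 member rose (AIF1L) and 0 fell in limma, where 0.319% of all genes rose and 0.42% fell. Before adjustment, 3 members were higher and 5 lower with p under 0.05 (9.11% and 7.67% of all genes). The groups did not overlap in 10 of 40 members, 25% against 24.7% of all genes. With a mean above 8 the groups were apart in 25.7% of 35 members and 35.7% of genes, so neither share exceeds the background.

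**Figure D1:**
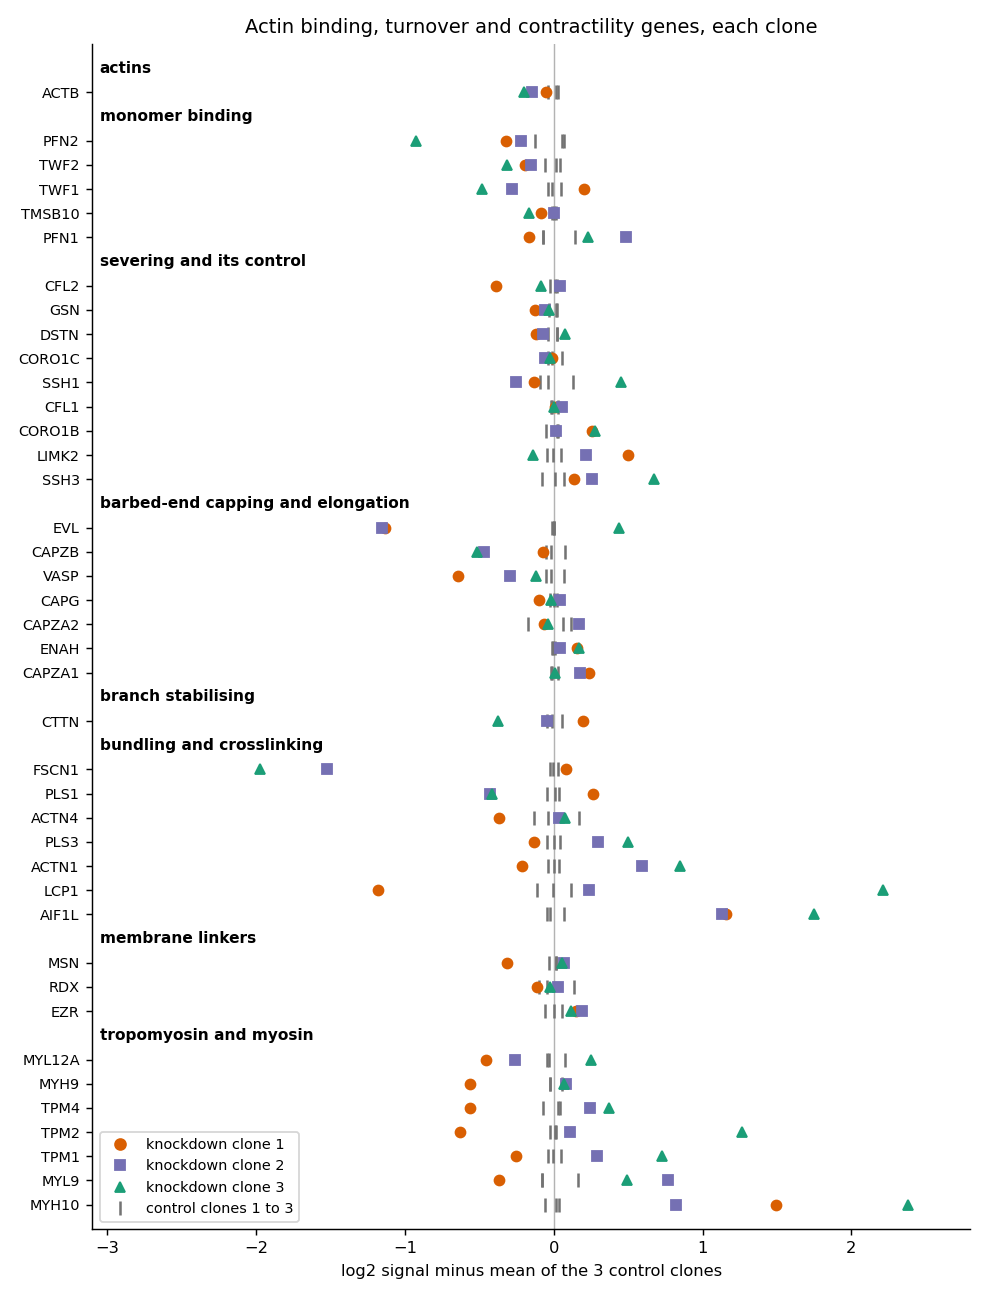
Log2 signal of each measured gene minus the mean of its 3 control clones, by role, with knockdown clones as coloured symbols and control clones as grey ticks. AIF1L and MYH10 are higher in all 3 knockdown clones, and FSCN1, LCP1, EVL and TPM2 lie far apart between them.

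The largest positive differences among the members were those of AIF1L, a small calcium-binding protein that bundles actin, and MYH10, the heavy chain of non-muscle myosin IIB. AIF1L read 7.51, 7.48 and 8.10 in knockdown clones 1, 2 and 3 and 6.32, 6.42 and 6.31 in the control clones (gene ID 83543, chromosome 9). Each knockdown clone was above each control clone. The change was 1.35 (SE 0.17, 95% interval 0.95 to 1.74), or 2.54-fold, and passed over all probe sets (limma adjusted p = 0.0336, exact permutation p = 0.1). Its other probe set did not share this. That one read 5.88, 5.89 and 6.18 against 5.92, 5.87 and 5.99, a difference of 0.06 (SE 0.11, limma adjusted p = 0.861), with overlapping groups. The probe sets of AIF1L therefore disagree, and the increase rests on 1 of them. The call was lost without any 1 control clone (change 1.32 to 1.38, adjusted p from 0.230 to 0.263) and without knockdown clone 2 (1.45, adjusted p = 0.0716). Averaging both probe sets ended it as well (0.70, adjusted p = 0.0729), as did the RNA index as a covariate (1.49, adjusted p = 0.195) and the replicate number as a block (1.35, adjusted p = 0.152).

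MYH10 read 9.64, 8.97 and 10.53 in knockdown clones 1, 2 and 3 and 8.09, 8.17 and 8.19 in the control clones (gene ID 4628, chromosome 17). All 3 knockdown clones lay above the controls, and they spread over more than 1 log2 unit among themselves. The change was 1.57 (SE 0.34, 95% interval 0.77 to 2.36, 2.96-fold) and missed the threshold (limma adjusted p = 0.1004). The second probe set read 7.19, 6.43 and 8.21 against 5.16, 5.68 and 5.64, with a difference of 1.78 (SE 0.40, adjusted p = 0.111). Both probe sets put clone 3 highest and clone 2 lowest of the knockdown clones. Without clone 3 the change was smaller, 1.16, and passed (adjusted p = 0.0188). With arrays weighted by their agreement it was 1.30 and passed too (adjusted p = 0.0331). In the other 12 alternatives it did not pass, with an adjusted p of up to 0.402. The 20 measured genes around MYH10 on the chromosome had a median change of 0.20, with 0.06, −0.01 and 0.40 in clones 1, 2 and 3. For the 20 neighbours of AIF1L the median was −0.04.

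**Figure D2:**
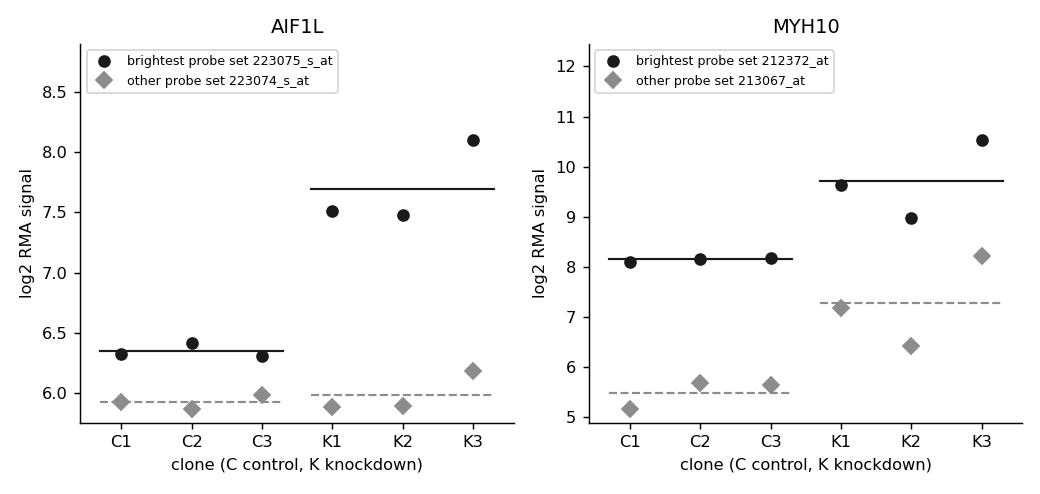
Log2 signal of AIF1L and MYH10 in each control (C) and knockdown (K) clone on both probe sets of each gene, with group means as lines. The probe sets of MYH10 move together (1.57 and 1.78), while those of AIF1L do not (1.35 and 0.06).

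MYH9, the heavy chain of the related myosin IIA, did not follow MYH10. It read 9.54, 10.18 and 10.17 in knockdown clones and 10.15, 10.07 and 10.07 in control clones, a difference of −0.14 (SE 0.17, limma adjusted p = 0.789). Clone 1 was the low one, and the other knockdown clones lay just above the controls. The regulatory light chains also overlapped. MYL9 read 7.82, 8.96 and 8.68 against 8.35, 8.11 and 8.11 (0.30, SE 0.27, limma adjusted p = 0.690). MYL12A read 11.29, 11.48 and 11.99 against 11.82, 11.71 and 11.70 (−0.16, SE 0.17, limma adjusted p = 0.755). On the brightest probe set of each light chain, clone 1 lay below and clone 3 above all control clones. On the dimmer probe set of MYL9 clone 1 lay within the control range (−0.04). It did so as well on the next brightest probe set of MYL12A (0.01), while it was below the controls on the others of that gene (−0.12 and −0.38). Clone 3 was above the controls on all of these.

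The split between clones 1 and 3 was the main feature of the contractile genes on their brightest probe sets. TPM1, a tropomyosin of stress fibres, read 10.66, 11.21 and 11.64 in knockdown clones 1, 2 and 3, around control values of 10.96, 10.90 and 10.87. TPM2 read 7.51, 8.25 and 9.40 around 8.12, 8.15 and 8.15. TPM4 read 8.97, 9.77 and 9.90 around 9.57, 9.46 and 9.56. On the brightest probe set of all 3 tropomyosins clone 1 was below and clones 2 and 3 above every control. The other probe sets of TPM2 were dim and did not show this, with clones 1, 2 and 3 at −0.14, −0.35 and −0.16 on 1 and at 0.07, 0.11 and −0.16 on another. The mean differences of TPM1, TPM2 and TPM4, 0.26, 0.25 and 0.02, were small beside this spread and did not pass (limma adjusted p from 0.678 to 0.984). The SD of TPM2 was 0.955 among knockdown clones and 0.0205 among control clones.

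ACTN1, the alpha-actinin that ties stress fibres together, had the same order. It read 11.62, 12.43 and 12.68 in knockdown clones 1, 2 and 3 against 11.84, 11.87 and 11.79. The difference of 0.41 (SE 0.25) did not pass with all clones (limma adjusted p = 0.527). Without knockdown clone 1 it was 0.72 and passed (adjusted p = 0.0316), while without clone 3 it was 0.19 (adjusted p = 0.685). ACTN4, the related non-muscle isoform, was at −0.37 in clone 1 and within the control range in the others, with a difference of −0.09 (SE 0.14, adjusted p = 0.847). PLS3, the widely expressed plastin, was at −0.14, 0.30 and 0.50 from the control mean in clones 1, 2 and 3. PLS1, the plastin of intestinal microvilli, went the other way, with 9.27, 8.58 and 8.59 against 9.02, 8.96 and 9.04 (−0.19, SE 0.18, adjusted p = 0.708).

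In all, 14 of the 40 members (35%) lay below every control in clone 1 and above every control in clone 3, against 9.83% of all genes. They were PFN1, DSTN, SSH1, EVL, PLS3, LCP1, ACTN1, MSN, TPM1, TPM2, TPM4, MYH9, MYL9 and MYL12A. The opposite arrangement, clone 1 above and clone 3 below, was found in 5 members (TWF1, LIMK2, CTTN, FSCN1 and PLS1), 12.5% against 12.8% of all genes. Together the arrangements held in 19 members, 47.5% against 22.6% of all genes. Both were described after the values were seen and carry no test. Among genes with a mean above 8, the first arrangement held in 12 of 35 members, 34.3% against 14% of genes. At that brightness the opposite held in 3 members, 8.57% against 18.3% of genes. Both together held in 15 of the 35 members, 42.9% against 32.2% of genes, a smaller gap than over all genes. The tropomyosin and myosin class had median deviations of −0.45, 0.24 and 0.49 in clones 1, 2 and 3, and the bundling class −0.14, 0.24 and 0.50. Clone 1 also had the highest 3′ minus 5′ index. With the index as a covariate, the differences were 0.85 for TPM1, 1.21 for TPM2, 0.74 for TPM4, 1.19 for MYL9, 1.11 for ACTN1 and 2.26 for LCP1, each larger than without it. None of these 6 passed (limma adjusted p from 0.195 to 0.451). All 6 were low in clone 1, which had the highest index. Every knockdown clone also had a higher index than every control clone. Group and RNA quality therefore cannot be told apart here, and the part of RNA quality in the split was not tested.

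Several genes have more than 1 bright probe set, and these did not give 1 size for the drop in clone 1. ACTN1 stood at −0.22 on its brightest probe set and at −0.77 and −0.75 on the others. TPM1 stood at −0.25 on the brightest and at −0.54 and −1.02 on the others, and TPM4 at −0.56 against −0.98 and −0.87. In clone 3 the probe sets of ACTN1 agreed (0.85, 0.89 and 0.83), as did those of TPM1 (0.73, 0.65 and 0.61). Over 21 such pairs in 13 members, the deviation on the other probe set minus that on the brightest had a median of −0.28 in clone 1, 0.00 in clone 2 and −0.01 in clone 3. Over 2714 pairs of all genes these medians were −0.04, 0.01 and 0.00. The size of the deviation in clone 1 therefore depends on the probe set, while its direction on the bright probe sets of these 3 genes does not. Clone 2 of TPM4 lay above the control mean on the brightest probe set (0.24) and below it on the others (−0.22 and −0.05).

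**Figure D3:**
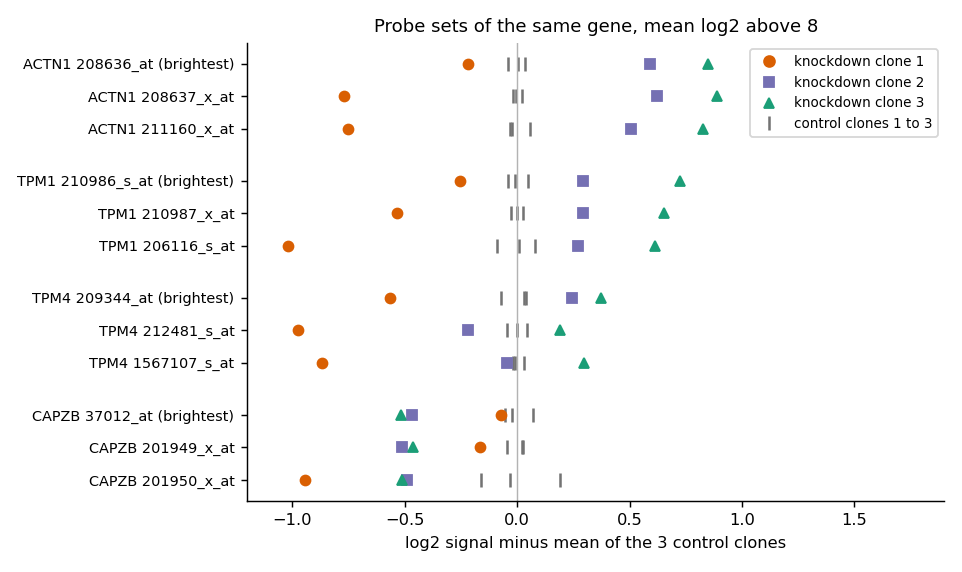
Log2 signal minus the control mean for each probe set with a mean above 8 of ACTN1, TPM1, TPM4 and CAPZB, with knockdown clones as coloured symbols and control clones as grey ticks. Clone 1 moves from −0.22 to −0.77 between probe sets of ACTN1, while clone 3 stays between 0.83 and 0.89.

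The promoters of ACTN1 and TPM4 are shown because, of the 14 members with clone 1 low and clone 3 high, these were found to hold the site that serum response factor binds. Whether this factor has a part in the arrangement of the clones was not tested. The site, called the CArG box, was searched as CC, then 6 positions of A or T, then GG, a pattern that reads the same on both strands. It was found in 4 of 38 listed members with a promoter in the table (ACTG1, ACTN1, FLNA and TPM4), or 10.5%, and in 1.60% of 27305 genes, using 250 bases before to 50 bases after each start. The members had 68 such windows for 38 genes and all genes 35116 for 27305, so a member had more windows in which the box could occur. Of the 14 members with clone 1 low and clone 3 high, 13 were in the table and 2 held the box. Letters come from RefSeq on GRCh38.p14, 5′ to 3′ on the strand of the gene, with the box in capitals, and end at the base before the start. ACTN1 has 4 starts in the table and TPM4 has 3. The promoter of 1 start each is shown, with the box 171 and 173 bases before that start. How many of the other starts hold the box was not counted.
ACTN1, chr14:68977567-68977816, minus strand: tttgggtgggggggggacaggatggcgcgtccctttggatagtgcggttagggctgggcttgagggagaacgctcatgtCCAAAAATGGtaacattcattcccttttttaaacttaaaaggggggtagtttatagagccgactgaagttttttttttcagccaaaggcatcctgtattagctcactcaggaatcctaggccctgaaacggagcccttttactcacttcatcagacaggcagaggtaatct
TPM4, chr19:16067288-16067537, plus strand: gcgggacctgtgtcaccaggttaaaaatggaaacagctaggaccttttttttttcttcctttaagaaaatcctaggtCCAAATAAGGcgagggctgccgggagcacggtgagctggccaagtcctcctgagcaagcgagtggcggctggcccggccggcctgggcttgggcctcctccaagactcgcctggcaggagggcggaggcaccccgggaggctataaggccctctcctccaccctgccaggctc

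Some other genes of the serum response factor axis also had clone 1 below and clone 3 above the controls. FHL2, a LIM-domain partner of the serum response factor, read 9.98, 10.94 and 10.90 in knockdown clones 1, 2 and 3 and 10.56, 10.46 and 10.54 in control clones. TGFB1I1, a focal adhesion protein, read 10.04, 10.73 and 10.96 against 10.32, 10.38 and 10.32. Both were low in clone 1 and high in the others, and clone 2 of FHL2 was marginally above clone 3. The box was found in 4 of 9 genes of the axis with a promoter in the table (SRF, FHL1, FHL2 and TGFB1I1). These 9 genes had 31 windows. FHL2, TGFB1I1 and SRF have 4, 3 and 2 starts in the table. The box of each of these genes is shown at 1 start with 10 bases on each side.
FHL2, chr2:105438595-105438624, minus strand: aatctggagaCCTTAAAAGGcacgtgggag
TGFB1I1, chr16:31473144-31473173, plus strand: tggaggggagCCAAATTTGGcttgggtgaa
SRF, chr6:43171229-43171258, plus strand: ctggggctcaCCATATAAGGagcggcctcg
Of 9 measured genes of the axis, 6 had clone 1 below and clone 3 above every control and 1 the opposite, beside 9.83% and 12.8% of all genes. With a mean above 8 these shares of genes were 14% and 18.3%, and the median signal of the list was 9.32. The list was chosen with earlier results of these data known and the arrangement after values were seen, so the count carries no test. None was called in limma (0 rose and 0 fell; before adjustment 0 were higher and 1 lower with p under 0.05). ELK1, a partner of the factor, differed by −0.28 (SE 0.09, limma adjusted p = 0.223) and SRF by 0.18 (SE 0.13, adjusted p = 0.585). The list median was 0.14, with −0.18, 0.23 and 0.38 in clones 1, 2 and 3.

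FSCN1, LCP1 and EVL lay farthest apart among the knockdown clones beside TPM2 and MYH10. FSCN1, the fascin that bundles filaments in filopodia, read 8.605, 7.0001 and 6.548 in knockdown clones 1, 2 and 3 and 8.552, 8.519 and 8.498 in the control clones. Clone 1 lay just above the controls and the others were more than 1 log2 unit lower. On the second probe set the clones stood at 0.53, −0.93 and −1.02 from the control mean. There clones 2 and 3 read 5.04 and 4.96, below their array medians of 5.13 and 5.16, so these drops have no exact size. On the brightest probe set the difference of −1.14 (SE 0.46, 95% interval −2.22 to −0.06) did not pass with all clones (limma adjusted p = 0.329). Without knockdown clone 1 it was −1.75 and passed (adjusted p = 0.0105), while without clone 3 it was −0.72 (adjusted p = 0.356). With the RNA index in the fit it was −2.54 (adjusted p = 0.195). The 20 measured neighbours of FSCN1 on chromosome 7 had a median change of −0.18, with −0.08, −0.28 and −0.29 in clones 1, 2 and 3. A neighbourhood median this low was found for 5.32% of 13030 genes. The part of the neighbourhood was not tested.

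LCP1, the plastin known from leukocytes and also found in carcinoma cells, read 5.23, 6.65 and 8.62 in knockdown clones 1, 2 and 3 and 6.40, 6.30 and 6.53 in the control clones. Clone 1 was low, close to the array median, and clone 3 was high. The mean difference of 0.42 (SE 0.72, limma adjusted p = 0.850) describes none of the clones. EVL, an elongation factor at filament tips of the Ena/VASP family, read 5.01, 4.98 and 6.57 against 6.13, 6.14 and 6.14. Clones 1 and 2 were low, below the array median and so not shown to be above background, and clone 3 was above the controls. Its difference was −0.62 (SE 0.39, limma adjusted p = 0.548), and −1.14 without clone 3, which passed (adjusted p = 0.00340). The other probe set of EVL was dim and showed no such drop in clone 1 (0.13, −0.31 and 0.24 from the control mean).

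**Figure D4:**
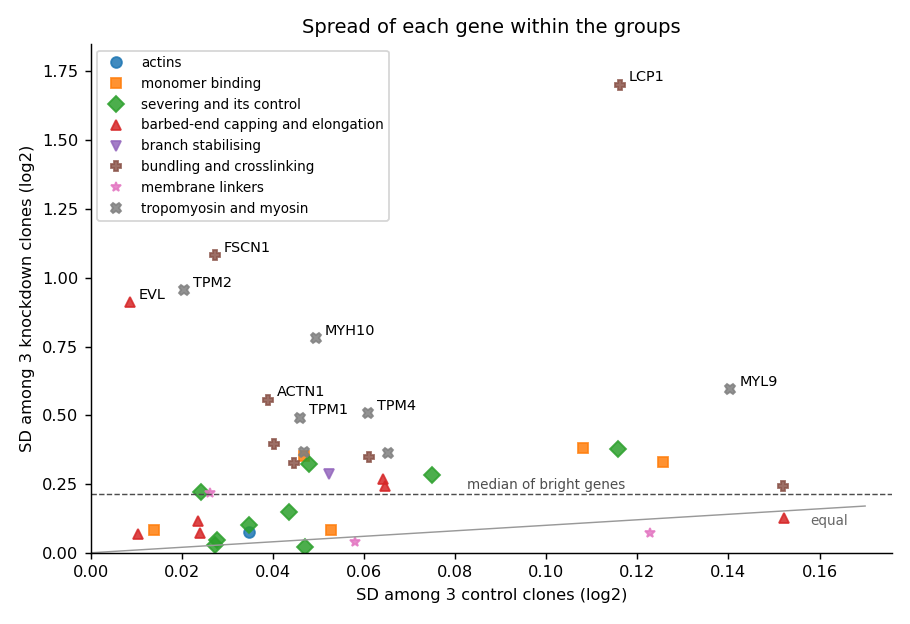
SD of each gene among the 3 knockdown clones against that among the 3 control clones (log2), by role, with the median of genes of mean above 8 as a dashed line. LCP1, FSCN1, TPM2 and EVL stand highest at 1.70, 1.08, 0.955 and 0.911, while their control SDs are 0.116 or less. The grey line marks equal SDs.

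The median SD of the members was 0.286 among knockdown and 0.0470 among control clones, beside 0.164 and 0.0751 over all genes. Among genes with a mean above 8 the knockdown values were closer, at 0.243 for 35 members and 0.212 for all 6307. An SD over 0.5 among the knockdown clones was found in 8 members (EVL, FSCN1, LCP1, ACTN1, TPM2, TPM4, MYH10 and MYL9), 20% against 6.74% of all genes. With a mean above 8 this held in 5 of 35 members, 14.3% against 8.09% of genes. The members of the contractile and bundling classes supply 7 of the 8. In clone 1, 2 members stood at least 0.5 above the control mean and 6 at least 0.5 below it (5.2% and 3.94% of all genes). In clone 2 these numbers were 4 and 2 (6.73% and 3.63% of all genes), and in clone 3 they were 8 and 3 (7.22% and 7.34% of all genes). Members far below the controls were most numerous in clone 1, and members far above them in clone 3. With a mean above 8 these shares were closer to those of all such genes, at 11.4% against 7.44% far below in clone 1 and 17.1% against 9.48% far above in clone 3.

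Genes that take filaments apart had smaller differences between the groups. On its brightest probe set the cofilin CFL1 read 13.8 in all 6 clones, with a difference of 0.02 (SE 0.08, 95% interval −0.16 to 0.21). The muscle-type cofilin CFL2 (−0.14, interval −0.43 to 0.14) and the depolymerising factor DSTN (−0.04, interval −0.25 to 0.17) did not pass either (limma adjusted p of 0.672 and 0.889). A second bright probe set of CFL1 did differ in clone 1, at −1.12 from the control mean, with 0.13 and −0.01 in clones 2 and 3 (change −0.33, adjusted p = 0.705). The other probe sets of CFL2 disagreed, with clone 1 at −0.80 on 1 and at 0.18, above every control, on another. The cofilin phosphatase SSH3 read 7.958, 8.079 and 8.4996 in knockdown clones and 7.89, 7.74 and 7.83 in control clones, with no overlap (0.36, SE 0.15, limma adjusted p = 0.336). Without knockdown clone 3 the difference was 0.20, and with the RNA index in the fit 0.66. LIMK2, a kinase that inactivates cofilin, gave 0.19 (SE 0.16, adjusted p = 0.661), with its clones on either side of the controls. The other members of this class, the phosphatase SSH1, the coronins CORO1B and CORO1C and the severing protein gelsolin (GSN), ran from −0.07 to 0.18.

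Among monomer-binding proteins, PFN1 and PFN2, the profilins that load monomers for growth, went apart. PFN2 read 10.93, 11.03 and 10.33 in knockdown clones 1, 2 and 3 and 11.31, 11.13 and 11.32 in the control clones, lower without overlap (−0.49, SE 0.18, 95% interval −0.92 to −0.06). It did not pass (limma adjusted p = 0.294), and was −0.27 without knockdown clone 3. The 20 measured neighbours of PFN2 on chromosome 3 had a median change of −0.50, with −0.64, −0.41 and −0.51 in clones 1, 2 and 3, and 2 of them were called lower. A neighbourhood median this low was found for 0.315% of 13030 genes, so PFN2 shares its direction with the genes around it. PLS1 lies on the same chromosome, and its own 20 neighbours had a median of −0.53. PFN1 read 12.65, 13.30 and 13.04 against 12.96, 12.74 and 12.74 (0.18, SE 0.17, adjusted p = 0.694), with overlapping groups. The monomer-sequestering thymosin TMSB10 (−0.08) and the twinfilins TWF1 (−0.19) and TWF2 (−0.22) did not pass.

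ACTB, the main cytoplasmic actin, read 14.32, 14.23 and 14.17 in knockdown clones and 14.39, 14.34 and 14.40 in control clones (−0.13, SE 0.09, limma adjusted p = 0.551). Its 3 probe sets agreed, from −0.19 to −0.13, and the 20 measured neighbours on chromosome 7 had a median change of −0.31. The control probe sets along the same transcript differed more toward its 5′ end. At the 3′ end the knockdown clones read 14.01, 14.07 and 14.03 against 14.25, 14.16 and 14.21. At the 5′ end they read 10.20, 10.91 and 10.77 against 11.99, 11.25 and 11.75. The group difference was −0.17 at the 3′ end, −0.54 in the middle and −1.03 at the 5′ end (exact permutation p = 0.1 for each). These probe sets form part of the RNA quality index, and the difference in ACTB depends on where on the transcript it is read.

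At the filament ends, the capping subunit CAPZB and VASP, which elongates filaments, were lower in all 3 knockdown clones. CAPZB read 10.97, 10.57 and 10.52 in knockdown clones 1, 2 and 3 and 11.11, 10.99 and 11.02 in the control clones (−0.35, SE 0.13, limma adjusted p = 0.291). Its other bright probe sets gave −0.38 and −0.65 (adjusted p of 0.195 and 0.120), and clones 2 and 3 lay between −0.51 and −0.46 on all 3. Clone 1 stood at −0.07 on the brightest and at −0.16 and −0.94 on the others, so the size of its drop depended on the probe set. On the brightest probe set, without knockdown clone 1 the change was −0.49 and passed (limma adjusted p = 0.0494). VASP read 8.60, 8.95 and 9.12 against 9.31, 9.19 and 9.22 (−0.35, SE 0.14, adjusted p = 0.322), lowest in clone 1. The capping partners CAPZA1 (0.14) and CAPZA2 (0.02), the capping protein CAPG (−0.03) and ENAH (0.12), a relative of VASP, did not pass.

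CTTN, which stabilises the branches made by ARP2/3, read 11.64, 11.39 and 11.06 in knockdown clones against 11.39, 11.50 and 11.43. On this brightest probe set clone 1 was high and clone 3 low, and the difference of −0.08 (SE 0.15) did not pass (limma adjusted p = 0.869). On the other CTTN probe sets with a mean above 5, clone 3 lay above the controls instead, at 0.48, 0.53 and 1.28 from the control mean. Clone 1 stood at −0.01, −0.20 and 0.04 on these. Of the linkers that join filaments to the membrane, EZR read 10.91, 10.95 and 10.87 against 10.70, 10.76 and 10.82, slightly higher without overlap (0.15, SE 0.08, adjusted p = 0.482). Its probe sets differed, from −0.14 to 0.36. MSN and RDX gave −0.06 and −0.03 (adjusted p of 0.867 and 0.920). Of 29 members with several probe sets, all of a gene's probe sets gave 1 sign in 11.

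Of 43 further measured actin-binding proteins, 0 rose and 0 fell in limma, and the median was 0.00. Before adjustment, 4 were higher and 5 lower with p under 0.05, where 9.11% and 7.67% of all genes were. Clone 1 lay below and clone 3 above every control in 8 of them, and the opposite held in 11. Over all genes these shares were 9.83% and 12.8%, and with a mean above 8 they were 14% and 18.3%. In this list the opposite arrangement was thus the more frequent, unlike among the members. PLEK2, a pleckstrin of the cell cortex, read 10.03, 10.15 and 10.03 against 10.49, 10.51 and 10.56 (−0.45, SE 0.09, limma adjusted p = 0.0748). The pointed-end-directed motor MYO6 read 10.10, 10.13 and 9.95 against 9.59, 9.63 and 9.61 (0.45, SE 0.09, adjusted p = 0.0796). In these 2 genes the knockdown clones stood close together and apart from the controls. They were chosen for the smallest p of the list, which favours such values, so no contrast with the tropomyosins is drawn.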

How the data were processed

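RNA of 6 clones was hybridised to Affymetrix U133 Plus 2.0 arrays, 1 array per clone. The deposited values are log2 signals. The submitters' processing notes name RMA and the program Affymetrix Expression Console, version 1.0. They were used as deposited. Probe sets were named from the platform annotation, with symbols updated by gene ID: 41091 had 1 symbol, 1801 had several and 11721 had none. Probe sets with several symbols were not used for any gene. Each gene was read on its probe set of highest mean.

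Knockdown and control clones were compared with limma 3.58.1 in R 4.3.3, by group only, with Benjamini-Hochberg adjustment over 54613 probe sets that are not array controls, and called at an adjusted p under 0.05. Intervals are limma's 95% intervals. The p-values set the group difference against the spread between clones, pooled over both groups and moderated across probe sets. That spread was unequal, with a median SD of the members of 0.286 among knockdown and 0.0470 among control clones. Fits were tested on simulated data. The number of arrays limits the precision.

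Clone values are given for members that were called, that differed by at least 0.5 without overlap, or that had the largest change of their role class, and in further lists for the 2 genes of smallest p. Other genes with clone values, and the arrangement of clones 1 and 3, were chosen after their values were seen. Members and lists were chosen with earlier results of these data known.

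Neighbours are the 10 measured genes on each side of a gene. Alternatives changed the probe set rule, centring, dim filter, intensity trend, array weights, the RNA index as a covariate, the replicate block and each clone left out. One further gene list is not reported here.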

Additional observations from a re-analysis of the deposited data

How the results depend on the processing

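Of 220 values of 16 named members under 14 alternatives, 195 kept their direction and side of the threshold, 12 turned direction, 7 lost a call and 6 gained one. The 7 lost calls were all AIF1L. The count of members called higher, 1 with all clones, was 0 with the mean of all probe sets of a gene, 0 without probe sets that match several transcripts (33 members measured), 0 with the RNA index as a covariate, 0 with the replicate block and 2 with array weights. Leaving out 1 clone at a time gave 0 to 2 members higher and 0 to 2 lower. The median change of the members, −0.03, was 0.094 with the index as a covariate. With the mean of all probe sets CTTN turned to 0.11, TPM2 to −0.018 and TPM4 to −0.12. Without probe sets that match several transcripts EVL turned to 0.018 and TPM2 to −0.22. With 1 clone left out, TPM4 ran from −0.39 to 0.038, CTTN from −0.21 to 0.075, LCP1 from −0.47 to 1.22 and TPM2 from −0.26 to 0.69. The cause was not tested. Over all genes, 63 were called higher and 83 lower with all clones, 79 and 70 with arrays centred on their medians, 97 and 98 with a mean above 5, 37 and 51 without probe sets that match several transcripts, 19 and 44 with an intensity trend, 419 and 295 with array weights, 0 and 1 with the index as a covariate, 384 and 323 without knockdown clone 1, 5 and 15 without clone 2, 786 and 441 without clone 3, and 0 and 2 without any 1 control clone. Clones that share a replicate number did not deviate together (correlations −0.07, −0.10 and −0.04). These deviations also hold the differences between single-colony clones, so they cannot settle whether the numbers pair the clones. The replicate block left 0 and 3 genes called.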
